A study of Mus musculus with 6 samples.

Results

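The genes described here encode the acidifying proton pump of the lysosome, its cathepsins and other hydrolases, and proteins of its membrane. The 43 were chosen by name as lysosomal genes and not by a filter on their values, but earlier results of these data were known. A row of the deposited table belonged to the list when its Ensembl identifier carried one of those symbols in GENCODE M21. All 43 were found among the 14864 identifiers of the table, and all 43 passed the filter on low values. They were measured by RNA sequencing in marginal zone B cells, a B cell subset at the edge of the splenic white pulp, which were flow-sorted from spleens of C57BL/6 mice aged 8 weeks. There were 3 libraries from wild-type mice (WT) and 3 from mice with a conditional knockout of CK2α (cKO), the catalytic subunit of protein kinase CK2 that Csnk2a1 encodes. The sources used here do not give the Cre driver, the deleted exons, the sort gates or the sex of the mice. The labels do not say that each library came from its own mouse, so the p-values rest on how much the libraries of a group vary, and part of that variation may be technical.

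Lysosomes are acidified by the V-ATPase, a rotary pump in which a cytosolic V1 sector hydrolyses ATP and turns a membrane sector, V0, that carries protons into the lumen. The low pH activates the cathepsins, which are proteases, and the hydrolases that take apart glycans and lipids. In B cells the same compartment cuts internalised antigen and the invariant chain so that peptides can be loaded on MHC class II. Many lysosomal genes carry the E-box sequence CACGTG near their start, which is the core of the element bound by the transcription factors TFEB and TFE3.

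The genes described here were searched for that core. RefSeq promoter windows on the build GRCm38.p6 were matched by symbol for 34 of the 43 genes, and the 250 bases before each start were searched for CACGTG, which reads the same on both strands. It was present for 12 of the 34 genes (35.3%), against 6.86% of all 27025 genes with a window and 9.78% of the 9962 that were also in the deposited table. The longer form TCACGTG, on either strand and always overlapping the shorter one, was present for 11 of the 34 (32.4%), against 3.58% and 5.76%. A match is a description of the sequence and shows no binding. Of the 6 called genes with a window, the core was found for Atp6v1a and Gla, of which the first rose and the second fell in cKO, as given below. The stretches of these 2 are shown for that contrast. Those of Lamp1 and Atp6v0b, which held the core 4 times and 2 times, are shown as examples of genes that did not pass the test. Ctsd, which did not pass either, also held the core 2 times and is not shown. Each stretch shown is written 5′ to 3′ on the gene's own strand with CACGTG in capitals. The Atp6v1a stretch is chr16:44139370-44139405 (minus strand), that of Gla chrX:134601182-134601211 (minus), that of Lamp1 chr8:13159085-13159160 (plus) and that of Atp6v0b chr4:117887330-117887380 (minus). The Gla stretch lies in the annotated first exon of its neighbour Hnrnph2, and it holds only the nearer of the 2 cores found before Gla.
Atp6v1a: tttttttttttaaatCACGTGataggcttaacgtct
Gla: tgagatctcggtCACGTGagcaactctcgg
Lamp1: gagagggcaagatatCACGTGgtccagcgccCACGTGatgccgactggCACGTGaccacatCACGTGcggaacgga
Atp6v0b: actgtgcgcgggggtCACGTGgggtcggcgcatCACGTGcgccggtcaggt

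The libraries held 18778776 to 23503756 reads, recovered from the deposited values as described under the processing. Csnk2a1 was not lower in the cKO libraries, where its mean was 4045 ± 87.6 normalised reads, beside 3957 ± 105 in WT (SD, n = 3 per group; limma adjusted p = 0.734). A count over a whole gene does not resolve a deleted exon, so this value does not check the labels, on which the directions given here rely. The 7 general B cell markers summed to 173895 to 185844 normalised reads in WT and 177839 to 182307 in cKO, and none was called. Of 10 marginal zone B cell markers 5 rose and none fell, with sums of 127459 to 137721 in WT and 132288 to 164312 in cKO. Among T and NK cell markers Lck fell (-0.79 ± 0.13, limma adjusted p = 0.00534). Of 11 genes of that list, 5 were in the table and summed to 646 to 742 in WT and 345 to 498 in cKO, without overlap. Most of these sums was Lck, with 686, 592 and 614 in WT and 298, 441 and 368 in cKO. The other 4 (Cd4, Cd8a, Klrb1c and Il7r) had means under 50 and were not called. Their log2 differences were -0.72, -1.11, -0.02 and 0.96. Of 9 dendritic cell markers 6 were in the table, and of these Zbtb46, with a mean of 71.9, rose (0.95 ± 0.23, limma adjusted p = 0.0252). Itgax, Flt3, Xcr1, Siglech and Bst2 were not called, with log2 differences of -0.13, -0.45, 0.06, 0.72 and 0.27. The sums of the 6 overlapped, at 772 to 907 in WT and 851 to 1059 in cKO. The part of these marker differences in the results for the lysosomal genes was not tested. The 16 macrophage and monocyte genes, cells that are rich in lysosomal enzymes, summed to 2243 to 3655 in WT and 1829 to 3444 in cKO. They were highest in WT replicate 2 and cKO replicate 1, which also had the highest sums of red cell and platelet markers. No macrophage marker was called, none was at 0 in any library, and 5 of them (Mertk, Cd14, Fcgr1, Siglec1 and Ly6c2) had a mean under 50. Of 7 follicular B cell markers 3 fell and none rose, and their sums were 37659 to 41325 in WT, but 31221, 38702 and 30796 in the 3 cKO libraries in order, and the second of these was within the WT range. Fewer cells of a type and less RNA per cell cannot be told apart in such bulk samples.

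The lysosomal genes took up nearly the same part of the libraries in both genotypes, while 7 of them differed. The 43 genes held 0.462% to 0.495% of each library's normalised reads, 98922 ± 3240 as the mean of WT and 101504 ± 1337 as that of cKO.

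Of the 43 genes, 4 rose (Lamp2, Atp6v1a, Atp6v1f and Grn) and 3 fell (Atp6v0a1, Ctsh and Gla) in cKO at a limma adjusted p under 0.05. The 7 called are 16.3% of the 43, beside 10.1% of all 14855 genes tested (5.08% higher and 4.97% lower). The WT and cKO values did not overlap for 17 of the 43 genes, beside 31.6% of all genes tested. The median log2 difference, cKO minus WT on the scale log2(normalised reads + 1), was 0.046 over the 43 genes and -0.001 over all genes, and its median size was 0.103 and 0.156. For the 36 genes that were not called, the 95% intervals of the fold cKO over WT lay between 0.634 and 1.25, and between 0.742 and 1.25 without Ctsl, the gene with the lowest level.

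**Figure D1:**
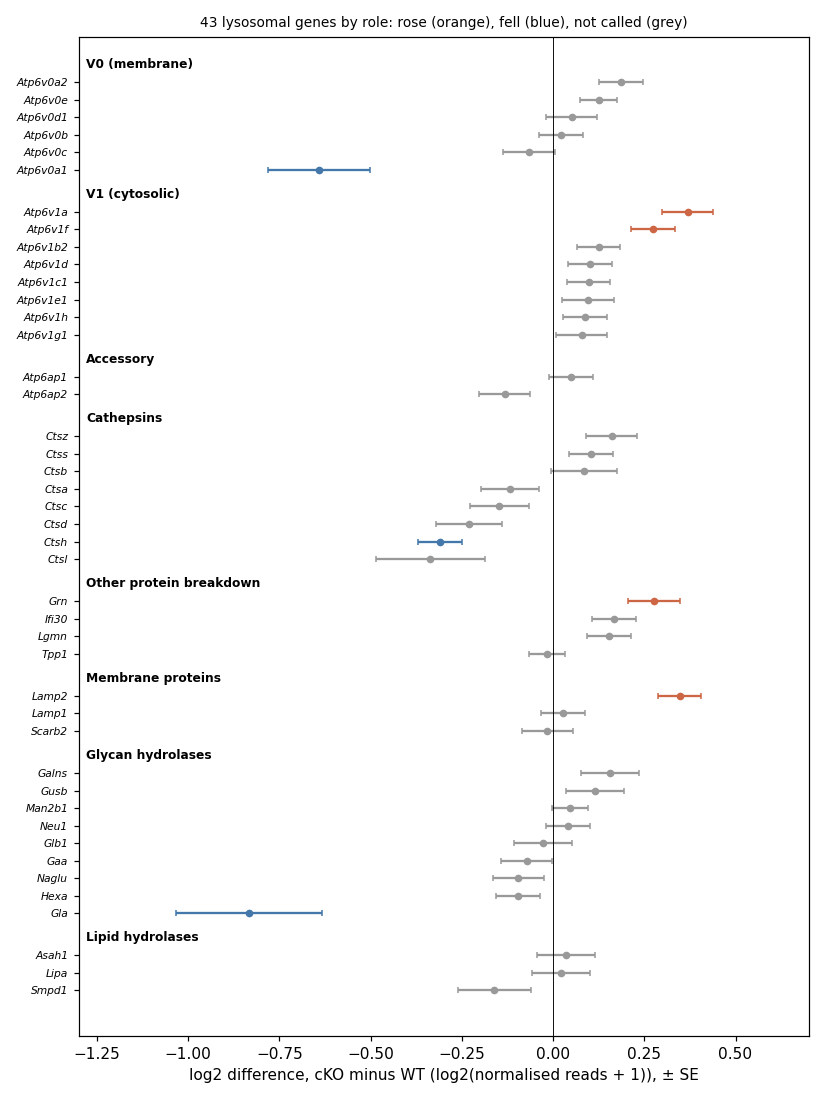
Log2 difference, cKO minus WT, with its standard error (x axis) for each of the 43 genes (y axis), grouped by role, from the limma fit on 3 WT and 3 cKO libraries. Orange genes rose, blue genes fell and grey genes were not called. The 8 V1 genes all lie above 0, as do 27 of the 43 genes in total, while Atp6v0a1 and Gla lie farthest below 0.

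The cytosolic V1 sector of the pump was the role in which every gene among the 43 had a log2 difference above 0. These V1 differences ran from 0.08 to 0.37, although only 2 of the 8 genes passed the test. For comparison, 27 of the 43 genes and 7405 of all 14855 genes tested lay above 0. Atp6v1g2, a V1 gene tested outside the 43, lay below 0 without a call (-0.23 ± 0.16, limma adjusted p = 0.386). Atp6v1a encodes the A subunit, which carries the catalytic sites for ATP. It stood at 1194, 1205 and 1203 normalised reads in WT replicates 1, 2 and 3 and at 1425, 1562 and 1676 in cKO replicates 1, 2 and 3. The WT libraries were nearly equal and all 3 cKO libraries lay above them. The log2 difference was 0.37 ± 0.07 (SE), a fold of 1.29 with a 95% interval of 1.16 to 1.43 (limma adjusted p = 0.00937), and the gene was called in all 16 alternative settings.

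Atp6v1f encodes the F subunit, part of the central stalk that turns during the pumping cycle. It gave 1423, 1508 and 1356 in WT and 1666, 1811 and 1704 in cKO, again without overlap. The log2 difference was 0.27 ± 0.06 (limma adjusted p = 0.0232), and the call was lost without WT replicate 1 (adjusted p = 0.0749), WT replicate 3 (0.0996) or cKO replicate 3 (0.0695). In the RefSeq gene order, the coding gene just before Atp6v1f is Flnc, which encodes a muscle filamin. Flnc went from 6.59, 2.11 and 7.83 in WT to 196, 110 and 100 in cKO, a log2 difference of 4.46 ± 0.42 (limma adjusted p = 0.000321). The part of this neighbour in the result for Atp6v1f was not tested.

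The other 6 V1 genes of the 43 were not called, with folds from 1.06 to 1.09. Atp6v1b2, the form of the B subunit that most tissues use, had the highest of these log2 differences at 0.12 ± 0.06 (limma adjusted p = 0.224). Its values were 2063, 2098 and 2218 in WT and 2214, 2489 and 2257 in cKO, so that the groups overlapped by a small margin. Atp6v1g1, which encodes a subunit of the outer stalk, had 847, 944 and 860 in WT and 883, 1001 and 916 in cKO. Atp6v1c1, Atp6v1d and Atp6v1h had no overlap between the groups, yet none of them passed the test, with log2 differences of 0.10, 0.10 and 0.09 (limma adjusted p = 0.369, 0.309 and 0.406). The 8 V1 genes of the 43 summed to 9489 ± 246 normalised reads in WT and 10645 ± 403 in cKO, a ratio of 1.122.

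Of the 6 genes of the membrane sector V0, 1 was lower and none was higher by the test. The log2 difference was above 0 for 4 of the 6. Atp6v0a1 encodes a form of the large a subunit, whose membrane part lines the path of the protons and whose isoforms direct the pump to different membranes. It stood at 1929, 1773 and 1861 in WT and at 924, 1545 and 1175 in cKO. Each cKO library was below the WT range, with cKO replicate 2 closest to it, and these 3 libraries varied most of the 43 genes in cKO, with a coefficient of variation of 25.7%. The log2 difference was -0.64 ± 0.14, a fold of 0.641 with a 95% interval of 0.517 to 0.796 (limma adjusted p = 0.0202). The call was lost without WT replicate 1 (adjusted p = 0.0861), WT replicate 3 (0.0744) or cKO replicate 3 (0.0665) and with robust moderation of the variances (0.107), in a range of 0.00036 to 0.107. The cKO library nearest to WT, replicate 2, also had the highest sum of follicular markers in cKO (38702), and the part of those markers in the result was not tested.

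Atp6v0a2, which encodes an a subunit known from Golgi and endosomal membranes, lay in the other direction without passing the test. It gave 2501, 2364 and 2523 in WT and 2837, 2581 and 2995 in cKO, with no overlap and a log2 difference of 0.19 ± 0.06 (limma adjusted p = 0.0927, and 0.0271 without cKO replicate 2). Tcirg1, the gene of the a subunit used by osteoclasts and by lysosomes of other cells, was not among the 43 but is needed to set the isoforms side by side. Per kilobase of merged exons, Atp6v0a1 made up 21.5%, 20.8% and 21.5% of the summed level of these 3 genes in WT, and 11.6%, 19.2% and 14.5% in cKO. The share of Atp6v0a2 went from 27.1%, 27% and 28.5% to 34.7%, 31.3% and 36.1%, whereas that of Tcirg1 was 51.2% ± 1.1 in WT and 50.9% ± 2.5 in cKO. The groups did not overlap for the shares of Atp6v0a1 and Atp6v0a2. By the length of the principal transcript, Atp6v0a1 made up 23.7% ± 0.463 in WT and 17.1% ± 4.23 in cKO. Atp6v0a2 made up 23.6% ± 0.718 and 29.6% ± 2.36, so the 2 shares were nearly equal in WT by that length. Per kilobase of merged exons, the summed level of the 3 genes was itself lower in each cKO library. It was 1329 ± 37.4 normalised reads in WT and 1225 ± 7.87 in cKO. A share can therefore be steady or higher where the level is not. Tcirg1 gave 3245, 3118 and 3029 normalised reads in WT and 3011, 2796 and 2798 in cKO, without overlap and without a call (-0.13 ± 0.06, limma adjusted p = 0.172). The shares sum to 100% and were computed after the fall of Atp6v0a1 had been seen, so they are a description. Exact permutation tests on the shares by merged exons gave p = 0.1 for Atp6v0a1 and Atp6v0a2 and 0.8 for Tcirg1. With 3 libraries against 3, 0.1 is the smallest p that such a test can give, and these p-values are not used as support. The gene Naglu, a member of the list that follows Atp6v0a1 in the RefSeq gene order, was not called (-0.10 ± 0.07, limma adjusted p = 0.406).

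**Figure D2:**
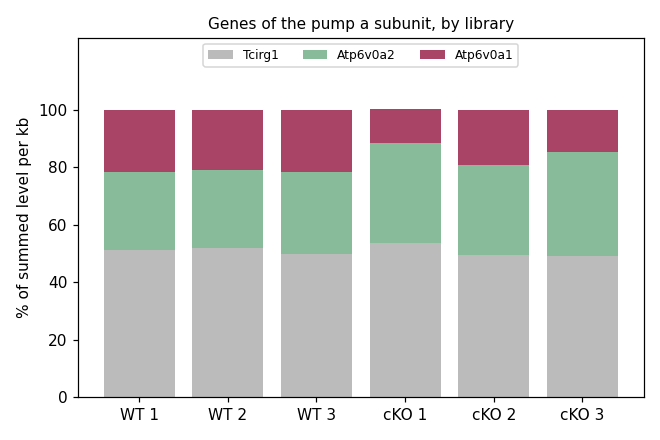
Share of the summed level per kilobase of merged exons (y axis, percent) that each of the 3 measured genes of the a subunit held in each of the 6 libraries (x axis). The Atp6v0a1 segment, on top, spans 20.8% to 21.5% in WT and 11.6% to 19.2% in cKO.

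The remaining V0 genes and the accessory genes were not called. Atp6v0b and Atp6v0c encode proteolipids of the rotating ring. Atp6v0b, the V0 gene with the highest level per kilobase, gave 2499, 2558 and 2496 in WT and 2658, 2422 and 2596 in cKO (0.02 ± 0.06, limma adjusted p = 0.839). Atp6v0d1, which couples the ring to the central stalk, gave 1358, 1280 and 1396 against 1316, 1478 and 1389. Atp6v0e had a log2 difference of 0.12 ± 0.05 without overlap of the groups (limma adjusted p = 0.174), and Atp6v0c gave -0.07 ± 0.07. Of the accessory genes, Atp6ap1, whose product helps the pump to assemble, gave 0.05 ± 0.06, with 3092, 3518 and 3265 in WT and 3313, 3602 and 3297 in cKO. Atp6ap2, also known as the prorenin receptor, gave -0.13 ± 0.07, with 923, 974 and 1067 against 895, 938 and 867. As a sum over its 6 genes, Atp6v0a1 among them, V0 stood at 10886 ± 237 in WT and 10795 ± 244 in cKO.

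**Figure D3:**
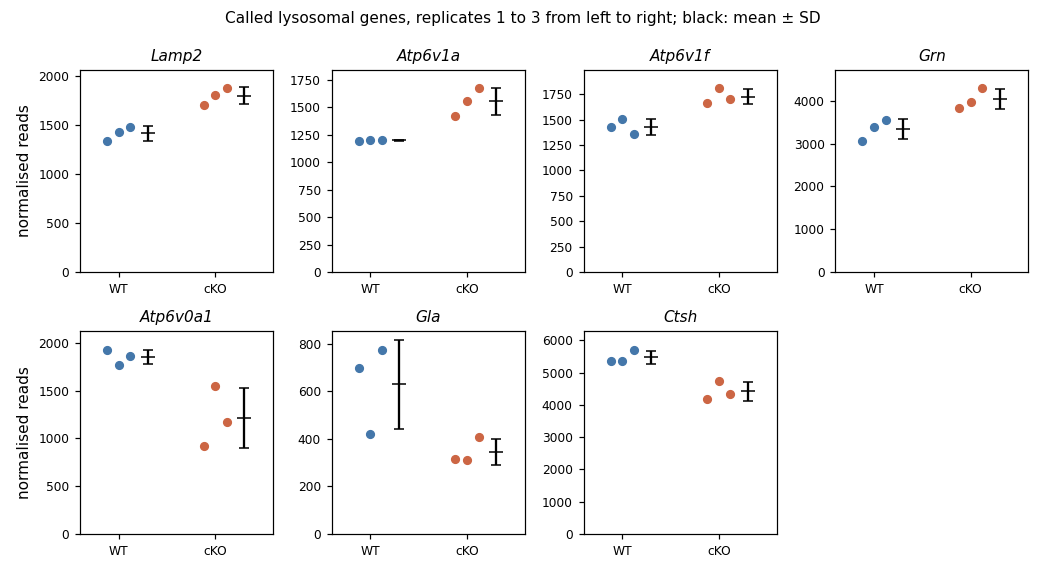
Normalised reads (y axis, from 0) of the 7 called genes in each WT library (blue) and each cKO library (orange), replicates 1 to 3 from left to right, with the mean and SD of each group in black. The groups do not overlap in any panel, but in the panel of Gla the lowest WT value (419) is next to the highest cKO value (408).

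Among the 8 cathepsin genes, Ctsh fell and no gene rose. Ctsh encodes cathepsin H, a cysteine protease that removes single residues from the start of a protein chain. It stood at 5376, 5352 and 5709 in WT and at 4174, 4749 and 4345 in cKO, and all cKO libraries lay below all WT libraries. The log2 difference was -0.31 ± 0.06, a fold of 0.806 with a 95% interval of 0.735 to 0.884 (limma adjusted p = 0.0119). The call was lost without WT replicate 3 (adjusted p = 0.065) or cKO replicate 3 (0.0561).

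The other cathepsins went both ways and did not pass. Ctss encodes cathepsin S, the protease that finishes the cutting of the invariant chain in B cells. It had the highest level per kilobase of the 43 genes, with 8826, 10225 and 9507 normalised reads in WT and 10534, 10027 and 10072 in cKO (0.10 ± 0.06, limma adjusted p = 0.314). Ctsz, a carboxypeptidase, followed with 6472, 7178 and 7383 against 8281, 7313 and 7913 (0.16 ± 0.07, limma adjusted p = 0.152). Ctsd, the aspartic protease cathepsin D, gave 911, 1198 and 1038 in WT and 883, 896 and 886 in cKO (-0.23 ± 0.09, limma adjusted p = 0.132), so that the cKO libraries were close together just under the lowest WT library. Ctsl, cathepsin L, was the lowest of the 43 genes per kilobase, with 169, 198 and 143 against 130, 134 and 136 (-0.34 ± 0.15, limma adjusted p = 0.168).

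Several of these proteases are abundant in macrophages, so their libraries were compared with the macrophage markers. In WT, Ctsa, Ctsb, Ctsd, Ctsl and Ctss were highest in replicate 2, the library with the highest macrophage sum, and Ctsc, Ctsh and Ctsz in replicate 3. Over all 43 genes, 5, 18 and 20 were highest in WT replicates 1, 2 and 3. Within cKO, Ctsa, Ctsb, Ctss and Ctsz were highest in replicate 1, the cKO library with the highest macrophage sum. Ctsb, for example, gave 4996 there, against 4003 and 4483. Ctsd and Ctsh were highest in cKO replicate 2, and Ctsc and Ctsl in cKO replicate 3. Over all 43 genes, 13, 13 and 17 were highest in cKO replicates 1, 2 and 3. Ctsd and Ctsl differed little between the 3 cKO libraries. The part of those markers in the values of the cathepsins was not tested. Some exon bases are shared with a gene on the same strand, and no strand setting would separate their reads. This touches Ctsd (34.4% of its exon bases are shared with Gm49369), Ctsl (6.1% with Gm49230) and Glb1 (5.5% with Tmppe). The strand setting of the counting is unknown, so reads from bases shared on opposite strands may also belong to either gene. This touches Ctsl (26.8% with Gm47123), Ctsb (12.8% with Fdft1), Hexa (12.8% with Tmem202), Atp6v0b (11.8% with Gm12841), Ctsa (10.5% with Pltp and 6.9% with Neurl2) and Atp6v0a2 (9.9% with 4930404A12Rik). Lamp1 (9.3% with Grtp1) and Ifi30 (8.7% with 6330537M06Rik) follow, and Grn shares 2% with Fam171a2. Atp6v1h (1.3% with Rgs20), Atp6v1e1 (0.8% with Slc25a18) and Ctsz (0.7% with Nelfcd) share less. Ctsh, Atp6v0a1, Atp6v1a, Atp6v1f, Gla and Lamp2 share no exon bases with another annotated gene.

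In the small group of other genes that serve protein breakdown, Grn rose. Grn encodes progranulin, which is cut into granulins in the lysosome. It gave 3070, 3396 and 3539 in WT and 3838, 3979 and 4295 in cKO, with no overlap and a log2 difference of 0.28 ± 0.07 (limma adjusted p = 0.0269). This call was among the least stable, as it was lost without WT replicate 1 (adjusted p = 0.0959), WT replicate 2 (0.051), WT replicate 3 (0.0508) or cKO replicate 3 (0.111). Ifi30, the thiol reductase that opens disulphide bonds of antigens, gave 3760, 3810 and 3838 in WT and 4118, 4591 and 4124 in cKO (0.17 ± 0.06, limma adjusted p = 0.0878). Lgmn encodes legumain, a protease that cuts after asparagine. It gave 4287, 4474 and 4474 against 5090, 4567 and 5075 (0.15 ± 0.06, limma adjusted p = 0.12, and 0.0363 without cKO replicate 2). For both Ifi30 and Lgmn each cKO library was above each WT library, yet neither passed the test. Tpp1, a tripeptidyl peptidase, gave 1893, 1914 and 1974 against 1868, 1885 and 1965 (-0.02 ± 0.05).

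Of the 3 membrane proteins, Lamp2 rose and the other 2 were not called. LAMP1 and LAMP2 are the heavily glycosylated proteins that coat the inside of the lysosomal membrane, and an isoform of LAMP2 serves chaperone-mediated autophagy. Lamp2 gave 1332, 1426 and 1479 normalised reads in WT and 1704, 1808 and 1875 in cKO. The groups were well apart, and the log2 difference of 0.35 ± 0.06 corresponds to a fold of 1.27 with a 95% interval of 1.15 to 1.40 (limma adjusted p = 0.00932). As with Atp6v1a, the call was made in all 16 alternative settings. Lamp1, in contrast, gave 2299, 2643 and 2580 in WT and 2629, 2558 and 2469 in cKO, with a fold of 1.02 and a 95% interval of 0.925 to 1.12. Scarb2, which encodes LIMP-2, the receptor that carries glucocerebrosidase to the lysosome, gave 954, 1044 and 1010 against 1020, 1014 and 941. Gene-level values cannot show which LAMP2 isoform differed.

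Among the 9 genes for the breakdown of glycans, Gla fell and the other 8 were not called. Gla encodes alpha-galactosidase A, which removes terminal galactose from glycolipids and is deficient in Fabry disease. It had the lowest log2 difference of the 43 genes, at 696, 419 and 774 normalised reads in WT and 314, 311 and 408 in cKO. WT replicate 2 was far below the other WT libraries and close to cKO replicate 3, and the WT coefficient of variation of 29.6% was the highest of the 43 genes. The log2 difference was -0.83 ± 0.20, a fold of 0.561 with a 95% interval of 0.416 to 0.757 (limma adjusted p = 0.0248). The call was lost without WT replicate 1 (adjusted p = 0.112), WT replicate 3 (0.103) or cKO replicate 1 (0.0552) and with robust moderation (0.111), in a range of 0.00216 to 0.112. The flanking coding genes in the RefSeq order were Rpl36a, a ribosomal protein gene that rose (0.27 ± 0.06, limma adjusted p = 0.0246), and Hnrnph2, which was not called (0.01 ± 0.05).

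The other glycan hydrolases had log2 differences between -0.10 and 0.16. Hexa, the alpha chain of beta-hexosaminidase, had 1983, 1982 and 2028 in WT and 1840, 1808 and 1960 in cKO, without overlap but also without a call (-0.10 ± 0.06, limma adjusted p = 0.288). Man2b1, the lysosomal alpha-mannosidase, had 5920, 5739 and 5563 against 6020, 5861 and 5895 (0.05 ± 0.05). At the upper end Galns, a sulphatase that acts on keratan sulphate, had 669, 710 and 756 against 800, 745 and 835 (0.16 ± 0.08, limma adjusted p = 0.214). Gaa, Glb1, Gusb, Naglu and Neu1 lay between -0.10 and 0.11. The 3 genes for lipid breakdown were not called either. Smpd1, acid sphingomyelinase, had 369, 453 and 408 in WT and 353, 375 and 368 in cKO (-0.16 ± 0.10, limma adjusted p = 0.314). Asah1, acid ceramidase, had 1028, 977 and 1159 against 1081, 991 and 1170, and Lipa, the acid lipase of cholesteryl esters, had 736, 844 and 756 against 830, 757 and 781. These 3 were close in both groups, with log2 differences of -0.16 to 0.04.

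Levels between genes were compared per kilobase of merged exons. The order was led by Ctss (7265 normalised reads per kilobase over the 6 libraries), Ctsz (5152), Ifi30 (4118) and Lgmn (2006). Atp6v1f (1484) and Atp6v0b (1238) led the pump, and Atp6v1h (95.2) was its lowest gene. Hexa (969) led the glycan hydrolases and Asah1 (315) the lipid hydrolases, while Ctsl (23.4) was last. When the length of the principal transcript was used in place of merged exons, the first 3 places and the last place were unchanged, Ctsh took rank 4 (3062) and Atp6v1h moved from rank 42 to rank 28 (453). By that length Lgmn (2342) had rank 7, Atp6v0b (2538) stood above Atp6v1f (2245) in the pump, and Man2b1 (1526) stood above Hexa (969) among the glycan hydrolases. Between the first 3 places and the last, the order therefore rests in part on the choice of length. Neighbours such as Ctsc (1150), Atp6ap1 (1106) and Ctsh (1100) lie closer than the spread of each gene between libraries.

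**Figure D4:**
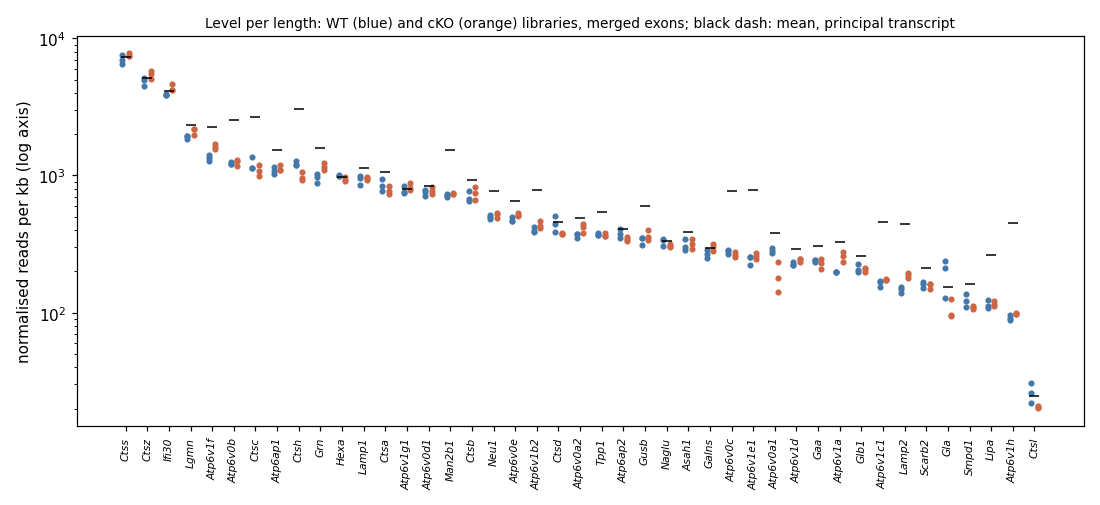
Normalised reads per kilobase of merged exons (y axis, log scale) of each of the 43 genes in the WT (blue) and cKO (orange) libraries, ordered by the mean, with the mean per kilobase of the principal transcript as a black dash. Ctss, Ctsz and Ifi30 lead by both lengths and Ctsl is last by both.

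Beyond the 43 genes, 134 other lysosome genes were listed in 6 groups, of which 120 were tested. Of these 120, 5 rose and 12 fell (14.2%, beside 10.1% of all genes tested), and their median log2 difference was -0.023. Among 26 other membrane proteins and transporters, 5 fell and none rose (19.2% called, beside the same 10.1% of all genes tested). All 3 genes of the mucolipins, cation channels of endosomes and lysosomes, were in this number. Mcoln1 gave 2142, 2012 and 2109 in WT and 1704, 1577 and 1669 in cKO (-0.34 ± 0.06, limma adjusted p = 0.00627). Mcoln2 and Mcoln3 gave -1.55 ± 0.13 and -0.40 ± 0.09 (limma adjusted p = 0.000189 and 0.02), and the call of Mcoln3 was lost without WT replicate 1 (0.0535), WT replicate 2 (0.0544) or WT replicate 3 (0.0765). The amino acid and lipid transporter genes Slc15a4 (-0.23 ± 0.05) and Spns1 (-0.26 ± 0.07) complete the 5, and are named outside the rule. Slc15a4 kept its call in 2 of the 6 fits that left out a library and Spns1 in 2 of 6, with adjusted p values of up to 0.0817 and 0.128.

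Among 21 tested genes that control lysosome formation, 1 rose and 3 fell (19% called, beside 10.1% of all genes tested). Mitf, a relative of Tfeb, was at a low level, with 36.2, 49.5 and 40.1 normalised reads in WT and 16, 18 and 11.4 in cKO (-1.42 ± 0.28, limma adjusted p = 0.0133). Flcn, whose product folliculin acts on the Rag GTPases of mTORC1 signalling, fell from 1716 ± 97.3 to 1405 ± 14 (-0.29 ± 0.06, limma adjusted p = 0.0163), and the Rag gene Rragb from 221 ± 16.1 to 163 ± 11.4 (-0.44 ± 0.12, limma adjusted p = 0.0433). Tfeb, named outside the rule, gave 2396, 2383 and 2420 in WT and 2632, 2740 and 2844 in cKO (0.19 ± 0.05, limma adjusted p = 0.0456). Tfeb and Rragb were called in 0 of the 6 fits that left out a library, where their adjusted p values reached 0.166 and 0.153. Tfeb also lost its call after rescaling to totals that leave out immunoglobulin genes (adjusted p = 0.0645). Mitf lost its call without WT replicate 3 (0.0547) or cKO replicate 3 (0.0501), and Flcn without WT replicate 1 (0.0623), WT replicate 3 (0.0593) or cKO replicate 3 (0.0595).

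In the remaining 4 groups, 8.82% to 15.8% of the tested genes were called, beside 10.1% of all genes tested. Of 34 other hydrolases and activators, Acp5, an acid phosphatase (0.32 ± 0.08), and Prcp, a carboxypeptidase (0.22 ± 0.06), rose, and Ppt1, a palmitoyl-protein thioesterase, fell (-0.21 ± 0.06). Of 9 other cathepsins and inhibitors, Napsa, an aspartic protease, rose (0.32 ± 0.08, limma adjusted p = 0.0256). Of 11 other pump subunits and assembly factors, Dmxl1, part of the complex that joins V1 to V0, fell from 5965 ± 184 to 4829 ± 312 (-0.31 ± 0.06, limma adjusted p = 0.0115; 0.0521 without cKO replicate 3). Of 19 genes of enzyme sorting, the adaptor genes Gga3 (-0.29 ± 0.07) and Ap1m1 (-0.28 ± 0.07) fell and Ap1s1 rose (0.30 ± 0.08). Of the 6 fits that left out a library, Acp5 and Napsa were called in 2, Prcp, Ap1m1 and Ap1s1 in 1, Ppt1 in 0 and Gga3 in 3, with adjusted p values of up to 0.139. Prcp also lost its call after rescaling to totals that leave out immunoglobulin genes (adjusted p = 0.0544).

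**Figure D5:**
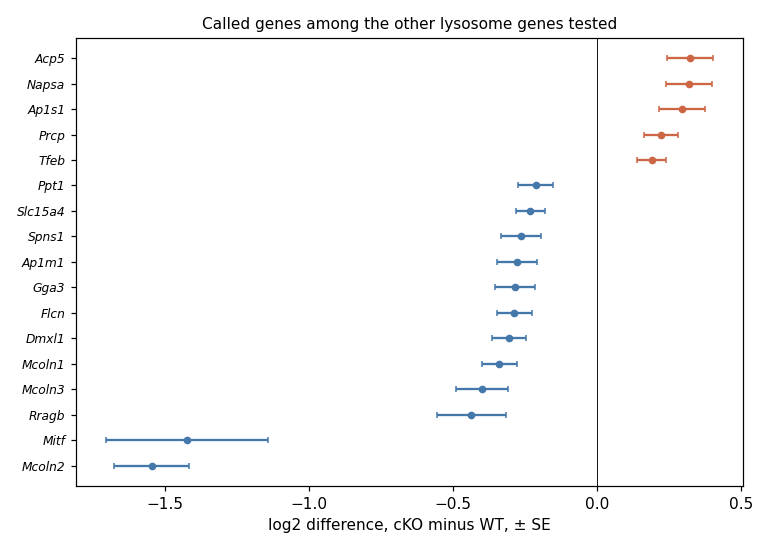
Log2 difference, cKO minus WT, with its standard error (x axis) of the 17 called genes (y axis) among the 120 other lysosome genes tested. Orange genes rose and blue genes fell. Mcoln2 (-1.55) and Mitf (-1.42) lie far below the rest.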

How the data were processed

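The values deposited by the authors are a signal per gene, namely reads counted and then scaled by 1 constant per library. In all libraries 100.0% of values came out as whole reads (tolerance 0.02 reads) once that constant was found, with a smallest value of 2 reads in cKO replicate 1. Per the submitters' processing notes, bcl2fastq 2.17, Trimmomatic 0.36, STAR 2.5.2b and the build mm9 were used. The sources used here do not give the counting tool, annotation, strand setting or normalization tool. Symbols, exon lengths and exon overlaps came from GENCODE M21 (GRCm38), which named 14824 of the 14864 identifiers. The lowest gene of the table had 61 reads over the 6 libraries.

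The test was limma 3.58.1 in R 4.3.3 on log2(value + 1), two-sided, with a trended variance, genotype as the only term and genes with a mean of at least 10. It was fitted on all 14855 such genes, with Benjamini-Hochberg adjustment over all of them and a threshold of 0.05. Differences on this scale understate the change of low genes. ± is a standard error after a log2 difference and an SD after a mean. The script was tested on simulated data. Alternatives included edgeR 4.0.16 and DESeq2 1.42.0 on the recovered reads. Library pairs of 1 group differed by more than sampling noise (chi-square per gene of 6.37 to 12.7). The genes named are the called members, the 2 with the highest level per kilobase in each role, the highest and lowest log2 difference of each role, and up to 3 called genes of each other group with the smallest adjusted p. Other members appear where their role is described. Members, lists and alternatives were chosen with earlier results of these data known.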

Additional observations from a re-analysis of the deposited data

How the results depend on the processing

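The counts of 4 genes that rose and 3 that fell were the same with a pseudocount of 0.5 or 10, no filter or a minimum mean of 100, rescaling with edgeR factors or without immunoglobulin genes, edgeR, DESeq2 and the replicate block. With robust moderation 4 rose and 1 fell (Ctsh). Leaving out 1 library at a time gave 2 to 6 that rose, 0 to 3 that fell, 496 to 1725 called genes among all tested and 3 to 23 among the other lysosome genes. The lowest counts of all genes called were 514 without WT replicate 1, 496 without WT replicate 3 and 524 without cKO replicate 3, beside 936 without cKO replicate 1; each such fit has fewer samples. Among the other lysosome genes 5, 11 and 4 were called without WT replicates 1, 2 and 3, and 9, 23 and 3 without cKO replicates 1, 2 and 3. No member was left among those that fell without WT replicate 3, and 6 rose without cKO replicate 2, where Atp6v0a2 and Lgmn joined. Of the 688 values of single members under the alternatives, 658 kept direction and call, 17 lost a call, 2 gained one and 11 turned direction. The 11 were values near 0 of genes that were not called, all in fits without 1 library, where the log2 differences ranged from -0.0057 to 0.0613 for Atp6v0b, -0.0383 to 0.0013 for Tpp1, -0.0338 to 0.0666 for Lamp1, -0.0512 to 0.0212 for Scarb2, -0.073 to 0.0307 for Glb1, -0.023 to 0.106 for Asah1 and -0.0184 to 0.0807 for Lipa. Both groups number their libraries 1 to 3, but the deviations of libraries with the same number correlated at -0.075, -0.02 and 0.147 across genes, so the numbers were not taken as pairs. With the replicate block 1551 genes were called in place of 1494, 4 members rose and 3 fell, Acp5 (adjusted p = 0.0513) and Rragb (0.05) of the other lysosome genes were no longer called, and not every library correlated best with its own number.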
